A study of Mus musculus with 6 samples.

Results

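The genes described here encode the receptors through which connective tissue cells sense interleukin-1 (IL-1), interleukin-33 (IL-33), interleukin-36 (IL-36) and interleukin-17 (IL-17), together with the cytokine IL-33 and the IL-1 antagonist. They were chosen by gene symbol from a fixed list of 10, and all 10 were found among the 52997 symbols of the count table. Of these, 9 had enough counts to be tested, and the antagonist gene Il1rn did not. The list was drawn up with earlier results of these data known.

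The cells were mesenchymal stromal cells, the matrix-building connective tissue cells, sorted from C57BL/6 mice aged 8 weeks at homeostasis, with 1000 cells per library. Hindlimb skeletal muscle gave 3 libraries, and pooled inguinal, axillary, brachial and cervical lymph nodes gave 3. The submitters call them biological replicates, but a pair of muscle titles carry the same number, so a shared animal is possible and p-values measure the spread between these libraries. Library numbers (2, 3 and 4 for muscle; 1, 2 and 3 for lymph node) follow the columns of the table. Which surface markers defined the sorted cells is not stated in the labels.

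IL-1 binds the receptor chain Il1r1, which then recruits the accessory chain Il1rap and signals through the adaptor Myd88 to NF-kB. Il1r2 binds the same ligand but lacks the signalling part and works as a decoy, and Il1rn encodes a ligand-like protein that blocks Il1r1. The IL-33 receptor Il1rl1 (also called ST2) and the IL-36 receptor Il1rl2 use the same accessory chain, whereas IL-17 acts on a complex of Il17ra and Il17rc. In fibroblasts these signals are known for inducing chemokines, IL-6 and matrix proteases.

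Total counts were 1844874, 1256276 and 415460 in muscle libraries 2, 3 and 4, and ran from 1851940 to 2397134 in lymph node libraries. All 10 stromal markers, among them Pdgfra, Col1a1 and Dcn, were detected in every library, and their summed level was 74224 ± 9541 CPM (counts relative to the TMM-scaled library size) in muscle, against 90427 ± 10983 CPM in lymph node (SD, n = 3 each). Of the 7 lymph node reticular markers, Ccl21a had 0 counts in all libraries. Ccl19 had 0 counts in muscle against 17 in lymph node, while Cxcl13 averaged 6.59 CPM in muscle cells, against 374 CPM in lymph node. Bst1, Tnfsf11 and Madcam1 had 7, 3 and 0 muscle counts, with 2 lymph node counts each. Only 2 of the 7 were tested, and Cxcl13 alone was called lower in muscle. Ltbr, the other tested marker, averaged 40.5 CPM (muscle) and 55.4 CPM (lymph node), a log2 fold change of -0.36 (edgeR adjusted p = 0.61). Muscle library 4 stood apart: its Pearson r of log2 CPM, across genes that are not independent replicates, was 0.705 and 0.702 to muscle libraries 2 and 3, which had r = 0.952 to each other. Summed T cell markers reached 484 CPM in it against between 3.997 and 14.2 CPM in the other 5 libraries, and summed B cell markers, all 7 detected, 1874 CPM against between 15.4 and 259.96 CPM. The upper end of that range was lymph node library 3, whereas lymph node libraries 1 and 2 had 15.4 and 33.9 CPM. Summed myeloid markers were 1263 CPM in muscle library 4 against between 17.4 and 37.8 CPM, and Cd74, which B cells also express, made up 1142 CPM of them. Lyz2 was at 83.3 CPM there against between 1.54 and 2.86 CPM in the other 5 libraries, and Tyrobp at 26.9 CPM against at most 1.58 CPM. Adgre1 and Fcer1g were each at 5.38 CPM in muscle library 4. Cd68, Csf1r, Itgam and Fcgr1 were at 0 there, and had at most 4 counts each in muscle libraries 2 and 3. Fold changes and levels of the receptor genes are therefore given with and without muscle library 4. In bulk libraries, fewer cells of a type and less RNA per cell cannot be told apart.

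The comparison asked which genes of these receptor systems stromal cells of muscle and lymph node express at different levels. The decoy Il1r2, the IL-36 receptor Il1rl2, the signalling receptor Il1r1, the accessory chain Il1rap and the IL-17 receptor chain Il17ra were lower in muscle, by between 2.20-fold and 19.4-fold. Il33, Il17rc, Il17rd and Il1rl1 did not pass the threshold. Of the 9 tested genes, 5 passed as lower in muscle (two-sided quasi-likelihood F test of edgeR over all 10823 tested genes, Benjamini-Hochberg adjusted p under 0.05), against 2.86% of all tested genes called lower and 4.32% called in either direction. In the higher direction 0 were called, with 0 at an unadjusted p under 0.05 and 0 by DESeq2 or limma-voom, against 1.46% of all tested genes. Log2 fold changes (muscle minus lymph node) had a median of -1.14 over the 9 genes and 0.02 over all tested genes. In 6 of the 9 all muscle libraries lay below all lymph node libraries, against 13.7% of all tested genes. Without muscle library 4 the same 5 genes were called lower, against 7.58% of the genes tested then, and 0 higher, against 4.79%. The median was then -1.25, and 7 of the 9 lay wholly below lymph node, against 19.9% of the genes tested.

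**Figure D1:**
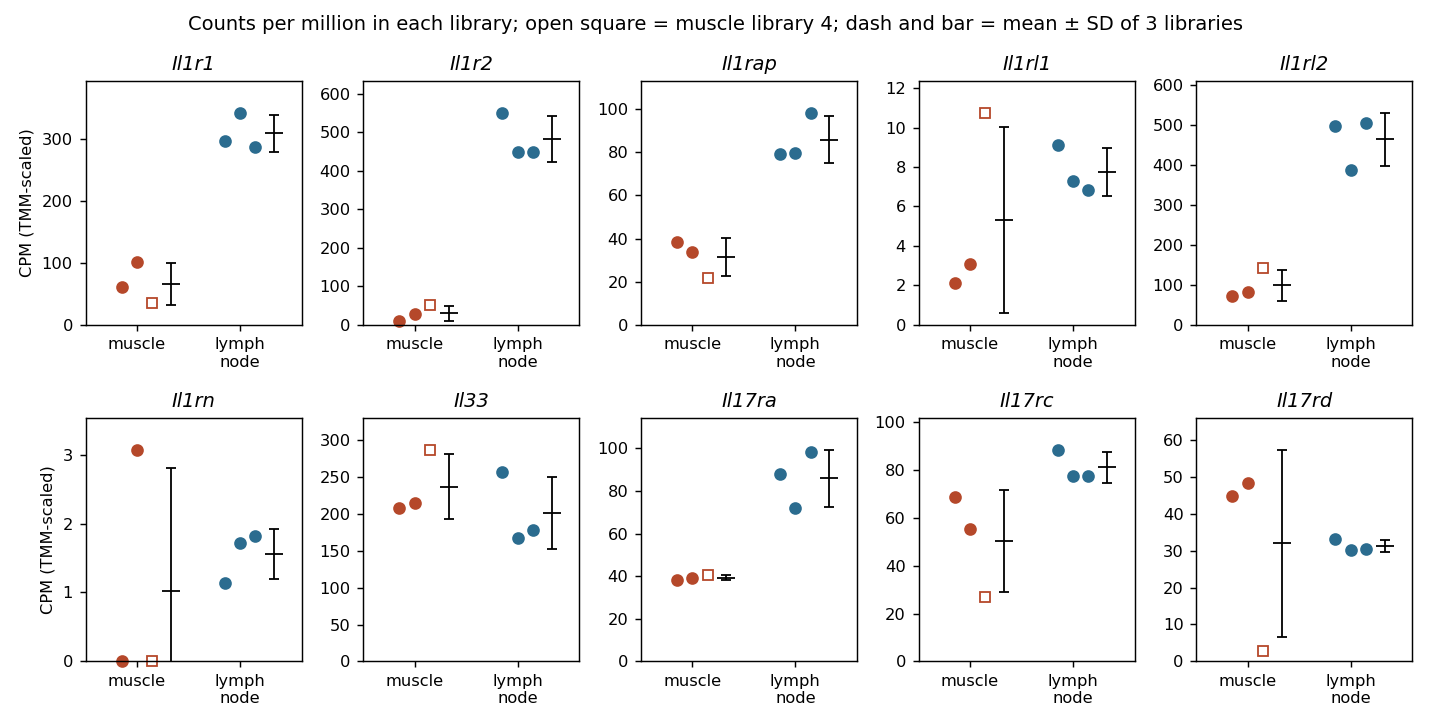
CPM (vertical axis, linear, from 0) of each of the 10 genes in the 3 muscle and the 3 lymph node libraries, with the mean and SD of each tissue as a dash and bar and muscle library 4 as an open square. Muscle libraries lie below all lymph node libraries for Il1r1, Il1r2, Il1rap, Il1rl2, Il17ra and Il17rc, and muscle library 4 is the highest muscle library for Il1r2, Il1rl1, Il1rl2, Il33 and Il17ra and the lowest for Il1r1, Il1rap, Il17rc and Il17rd.

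Il1r2, the decoy receptor, had 10.5, 26.9 and 51.1 CPM in muscle libraries 2, 3 and 4, against 550, 449 and 449 CPM in lymph node libraries 1, 2 and 3. Even the highest muscle library was far below the lowest lymph node library. The means were 29.5 ± 20.4 CPM in muscle cells, against 483 ± 58.8 CPM in lymph node (SD, n = 3 each), a log2 fold change of -4.28 ± 0.44 (SE, edgeR adjusted p = 0.00112). It had the 22nd most negative fold change of the 10823 tested genes. In muscle cells it lay above 50.2% of tested genes by mean CPM, and in lymph node cells above 97.9%. The change was -4.77 without muscle library 4 (adjusted p = 5.24e-08), and the adjusted p stayed at or below 0.0119 in all 17 alternatives. Neutrophils also express this receptor: summed neutrophil markers were 116 CPM in muscle library 4 against between 2.64 and 12.3 CPM elsewhere. There 3 of 7 markers were detected: Csf3r at 59.1 CPM, S100a9 at 45.7 CPM and S100a8 at 10.8 CPM. In the other libraries these were at most 4.61, 2.31 and 3.84 CPM. Ly6g, Elane, Cxcr2 and Mpo were at 0 in muscle library 4, and had at most 3 counts in any library. The part of neutrophils in the Il1r2 level of muscle library 4 was not tested.

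Il1r1, the signalling receptor for IL-1, measured 60.7, 101 and 34.9 CPM in muscle libraries 2, 3 and 4, against 296, 342 and 287 CPM in lymph node libraries 1, 2 and 3. The muscle libraries spread widely among themselves, and all lay below the lymph node libraries. Its means were 65.7 ± 33.5 CPM in muscle cells, against 308 ± 29.2 CPM in lymph node, and the log2 fold change was -2.16 ± 0.31 (edgeR adjusted p = 0.00495). It was -1.96 without muscle library 4 (adjusted p = 1.11e-05). The adjusted p came closest to the threshold, at 0.0497, without lymph node library 2, and all 17 alternatives kept the call.

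Il1rap, the accessory chain shared by the receptors for IL-1, IL-33 and IL-36, measured 38.5, 33.8 and 21.5 CPM in muscle libraries 2, 3 and 4, against 79.4, 79.9 and 98.3 CPM in lymph node libraries 1, 2 and 3. The tissues did not overlap. The log2 fold change was -1.37 ± 0.25 (edgeR adjusted p = 0.0131) with all libraries and -1.25 without muscle library 4 (adjusted p = 4.37e-04). The call was lost when muscle library 3 or lymph node library 1, 2 or 3 was left out, with adjusted p of 0.0667, 0.0644, 0.084 and 0.104, so the direction held in those fits but the call did not.

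Il1rl2, the receptor for IL-36, was among the more abundant genes of the group in lymph node cells, above 97.8% of tested genes by mean CPM. It had 71.7, 82.2 and 142 CPM in muscle libraries 2, 3 and 4, against 499, 387 and 506 CPM in lymph node libraries 1, 2 and 3. Every muscle library was below every lymph node library, and muscle library 4 was nearest to them. Means were 98.8 ± 38.2 CPM in muscle cells, against 464 ± 66.8 CPM in lymph node, with a log2 fold change of -2.29 ± 0.28 (edgeR adjusted p = 0.00187), or 4.90-fold lower in muscle. Without muscle library 4 the change was -2.60 (adjusted p = 2.29e-07), and the highest adjusted p over the 17 alternatives was 0.0207. The IL-36 ligand genes, listed in the table under their older names Il1f6, Il1f8 and Il1f9, had 2, 1 and 6 counts in muscle, against 1, 4 and 2 in lymph node.

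Il1rl1, the IL-33 receptor, was at the edge of detection, with 4 counts in each of muscle libraries 2, 3 and 4 and 16, 17 and 15 counts in lymph node libraries 1, 2 and 3. In CPM these were 2.11, 3.07 and 10.8 in muscle, against 9.14, 7.30 and 6.83 in lymph node. Muscle library 4, the shallowest, lay above all lymph node libraries, and muscle libraries 2 and 3 lay below them. The log2 fold change was -1.002 with a 95% interval from -2.42 to 0.42 (edgeR adjusted p = 0.534), and -1.59 without muscle library 4 (95% interval from -2.81 to -0.37, adjusted p = 0.0926), so the gene was not called in either fit. Il1rl1 is a known marker of regulatory T cells, group 2 innate lymphoid cells and mast cells. In muscle library 4 the summed regulatory T and group 2 innate lymphoid markers were 43.0 CPM against between 15.02 and 23.2 CPM in the other 5 libraries. There 2 of 7 markers were detected: Ikzf2 (34.9 CPM against between 5.27 and 12.6 CPM) and Il7r (8.06 CPM against at most 3.87 CPM). Foxp3, Gata3, Il2ra, Ctla4 and Areg were at 0 there, and all but Il2ra had at most 6 counts in any library. Summed mast cell markers were 16.1 CPM in muscle library 4 against between 3.01 and 6.37 CPM, from 3 of 7 markers. These were Cpa3 (8.06 CPM against at most 1.71 CPM), Mcpt4 (5.38 against at most 1.14) and Ms4a2 (2.69 against at most 2.28). They rested on 3, 2 and 1 counts there. Kit, Cma1, Tpsb2 and Fcer1a were at 0 there, and had at most 6 counts in any library. The part of these cell types in the Il1rl1 value was not tested.

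Il33 encodes the alarmin cytokine itself, which in muscle is known to act on regulatory T cells. It had 208, 215 and 288 CPM in muscle libraries 2, 3 and 4, against 257, 168 and 179 CPM in lymph node libraries 1, 2 and 3. The tissues overlapped. The log2 fold change was 0.22 with a 95% interval from -0.29 to 0.74 (edgeR adjusted p = 0.736), an interval that leaves out a change as large as those of Il1r1, Il1r2 or Il1rl2. It was 0.07 without muscle library 4, with an interval from -0.32 to 0.45. Il33 lay above 95.9% of tested genes by mean CPM in muscle and above 94.0% in lymph node.

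Il1rn, the IL-1 receptor antagonist, had few counts, with 0, 4 and 0 counts in muscle libraries 2, 3 and 4 and 2, 4 and 4 counts in lymph node libraries 1, 2 and 3. From the 4 muscle and 10 lymph node counts, the ratio of muscle to lymph node was 0.703 with an exact 95% counting interval from 0.161 to 2.44, so no difference was detectable at this depth. The IL-1 genes Il1a and Il1b were also scarce, with 1 and 24 counts in muscle, against 3 and 3 in lymph node, and 17 of the 24 Il1b counts came from muscle library 4.

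Il17ra, the chain that IL-17 receptors share, was the most even gene of the group in muscle. It measured 38.0, 39.2 and 40.3 CPM in muscle libraries 2, 3 and 4, against 87.9, 71.7 and 98.3 CPM in lymph node libraries 1, 2 and 3. The log2 fold change was -1.14 ± 0.22 (edgeR adjusted p = 0.0182), or 2.20-fold lower in muscle, and -1.16 without muscle library 4 (adjusted p = 9.36e-04). The fold moved little, between -1.27 and -1.05, when any 1 library was left out, but without any 1 library other than muscle library 4 the adjusted p was between 0.0673 and 0.129 and the call was lost.

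Il17rc, which pairs with Il17ra to bind IL-17, had 68.6, 55.3 and 26.9 CPM in muscle libraries 2, 3 and 4, against 88.5, 77.3 and 77.4 CPM in lymph node libraries 1, 2 and 3. The tissues did not overlap, yet the log2 fold change of -0.59 did not pass the threshold (95% interval from -1.23 to 0.04, edgeR adjusted p = 0.375), nor did the -0.38 without muscle library 4 (adjusted p = 0.203). Il17rd, also called Sef and known as an inhibitor of fibroblast growth factor signalling, had 44.8 and 48.4 CPM in muscle libraries 2 and 3 but 2.69 CPM, a single count, in muscle library 4, against 33.1, 30.1 and 30.5 CPM in lymph node. Its log2 fold change was 0.23 (95% interval from -0.88 to 1.33, adjusted p = 0.894). Without muscle library 4 it was 0.57 (95% interval from 0.14 to 1.00, adjusted p = 0.0909), with both remaining muscle libraries above all lymph node libraries, as in 19.8% of the genes tested then.

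**Figure D2:**
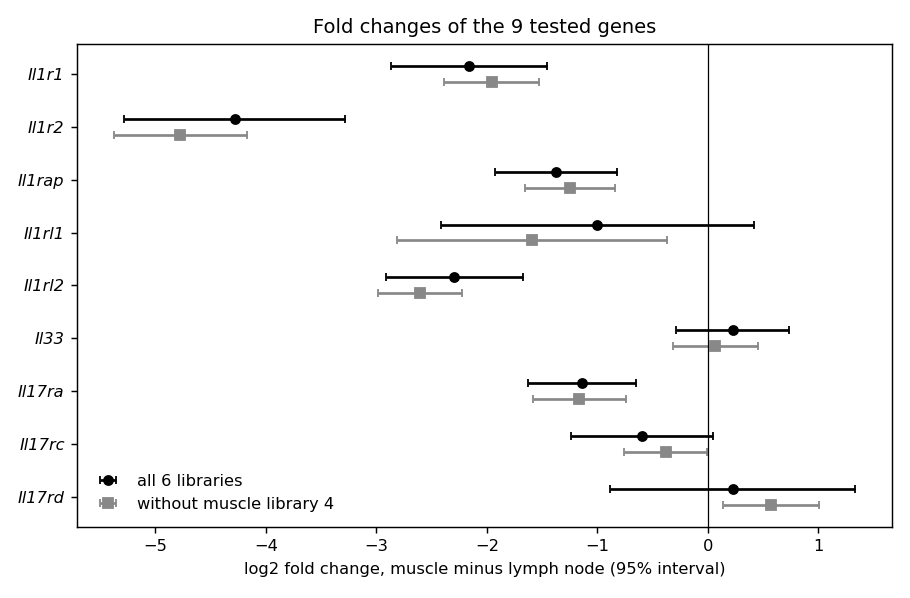
Log2 fold change, muscle minus lymph node, with its 95% interval for the 9 tested genes (edgeR), with all 6 libraries (black circles) and without muscle library 4 (grey squares). Il1r2 lies farthest from 0 at -4.28, and with all libraries the intervals of Il1rl1, Il33, Il17rc and Il17rd include 0.

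Levels of different genes were compared as CPM per kilobase (kb) of exon, since longer transcripts give more reads. In muscle cells Il33 led at 82.1 ± 15.2 CPM per kb, followed by Il17rc at 18.8 ± 7.98, Il1r2 at 15.5 ± 10.7, Il1rl2 at 14.5 ± 5.604 and Il1r1 at 10.3 ± 5.27 CPM per kb (SD, n = 3), and the ranges of the last 4 overlapped. Within each muscle library, however, Il17rc stood above Il1r1, at 25.7 against 9.53 CPM per kb in library 2, 20.7 against 15.9 in library 3 and 10.1 against 5.49 in library 4. The order of the others rested on muscle library 4: without it Il17rc was at 23.2, Il1r1 at 12.7, Il1rl2 at 11.3 and Il1r2 at 9.81 CPM per kb, with Il33 still first at 73.4. In lymph node cells Il1r2 led at 253 ± 30.8 CPM per kb, with Il33 at 69.7 ± 16.8, Il1rl2 at 68.1 ± 9.81, Il1r1 at 48.4 ± 4.59 and Il17rc at 30.4 ± 2.41 CPM per kb. There the ranges of Il33 and Il1rl2 overlapped. The remaining genes were lower in both tissues: Il17ra stood at 4.52 CPM per kb in muscle and 9.93 in lymph node, Il1rap at 2.75 and 7.56, Il17rd at 2.91 and 2.84, Il1rl1 at 0.771 and 1.13 and Il1rn at 0.185 and 0.282. Without muscle library 4 the muscle levels were 4.45 for Il17ra, 3.18 for Il1rap, 4.24 for Il17rd, 0.376 for Il1rl1 and 0.278 for Il1rn. With the length of the longest coding transcript in place of all exons, Il1rl2 rose above Il33 in lymph node cells, at 119 CPM per kb against 79.1, and Il1rap above Il17ra in both tissues, at 6.92 against 5.05 CPM per kb in muscle and 19.0 against 11.1 in lymph node. In muscle Il1rl2, at 25.3 CPM per kb over the 3 libraries, then also stood above Il17rc at 21.8 and Il1r2 at 20.8. That order was not computed without muscle library 4, where Il1rl2 was highest and Il17rc lowest among the muscle libraries. Per kb of all exons, Il1rl2 stood at 10.5, 12.1 and 20.9 in muscle libraries 2, 3 and 4. There Il17rc stood at 25.7, 20.7 and 10.1.

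Ratios of a pair of genes within a library do not depend on the scaling between libraries, and 4 such ratios of counts per kb were set side by side. The decoy exceeded the signalling receptor in every lymph node library: Il1r2 to Il1r1 was 0.604, 0.903 and 4.76 in muscle libraries 2, 3 and 4, against 6.19, 4.38 and 5.22 in lymph node libraries 1, 2 and 3. Muscle library 4 thus fell among the lymph node libraries, with 19 counts of Il1r2 and 13 of Il1r1. The log2 ratio was 0.46 ± 1.58 in muscle and 2.38 ± 0.25 in lymph node (SD, n = 3 each), a difference of -1.92 (two-sided exact permutation p = 0.2, 0.4 adjusted over the 4 ratios). The difference was -2.82 without muscle library 4 and -1.33 without muscle library 2. For the accessory chain, the log2 ratio of Il1rap to Il1r1 was -1.79 ± 0.53 in muscle and -2.68 ± 0.28 in lymph node, a difference of 0.89 (exact permutation p = 0.2, adjusted 0.4), or 0.73 without muscle library 4. The log2 ratio of Il17ra to Il17rc was -1.96 ± 0.72 in muscle and -1.62 ± 0.24 in lymph node (exact permutation p = 0.5, adjusted 0.5). Its difference of -0.34 was -0.74 without muscle library 4 and -0.050 without muscle library 2. That of Il1rl1 to Il33 was -6.77 ± 0.97 in muscle and -5.86 ± 0.14 in lymph node (exact permutation p = 0.4, adjusted 0.5), a difference of -0.92, or -1.46 without muscle library 4 and -0.52 without muscle library 2. With 3 libraries against 3, such a test cannot go below 0.1.

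**Figure D3:**
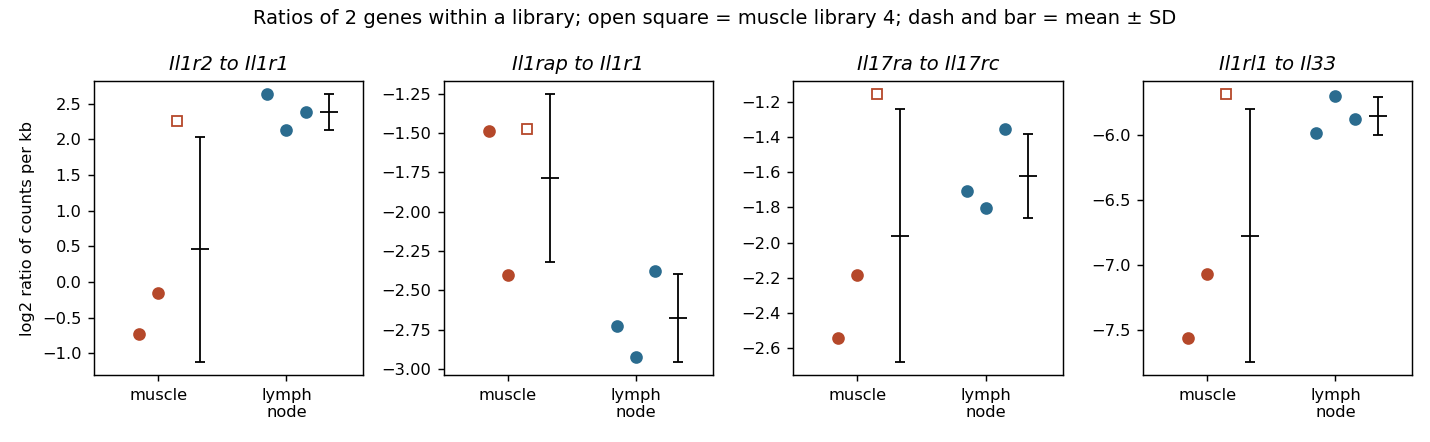
Log2 ratio of counts per kb of 2 genes within each library (vertical axis, scaled separately in each panel), muscle on the left and lymph node on the right, with the mean and SD as a dash and bar and muscle library 4 as an open square. For Il1r2 to Il1r1, muscle libraries 2 and 3 lie at -0.73 and -0.15 and muscle library 4 at 2.25, among the lymph node libraries.

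Position was not used to choose the genes, but their names mark a receptor family, so choice and position are not independent. Il1r2 (40074079 to 40125231), Il1r1 (40225080 to 40317257), Il1rl2 (40324610 to 40367562) and Il1rl1 (40429570 to 40465415) lie next to each other on the plus strand of mouse chromosome 1 (GRCm38), followed by the IL-18 receptor genes Il18r1 and Il18rap. Among the 15 protein-coding genes from 500 kb before Il1r2 to 500 kb after Il1rl1, 6 were tested. The neighbour on the Il1r2 side, the kinase gene Map4k4, had a log2 fold change of -0.51 (edgeR adjusted p = 0.249). Il18r1 on the other side had -1.02 (adjusted p = 0.676), and -2.58 without muscle library 4 (adjusted p = 0.00456), and 9 of its 15 muscle counts lay in that library. Il18rap had 2, 3 and 28 counts in muscle libraries 2, 3 and 4 and 6 counts in all lymph node libraries together, too few to test. Both IL-18 receptor chains are known from T and natural killer cells, and the summed T cell markers of muscle library 4, with all 10 detected, are given above; their part in these counts was not tested. Map4k4 and Il18rap were picked for their position after the values of the receptor genes had been seen.

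**Figure D4:**
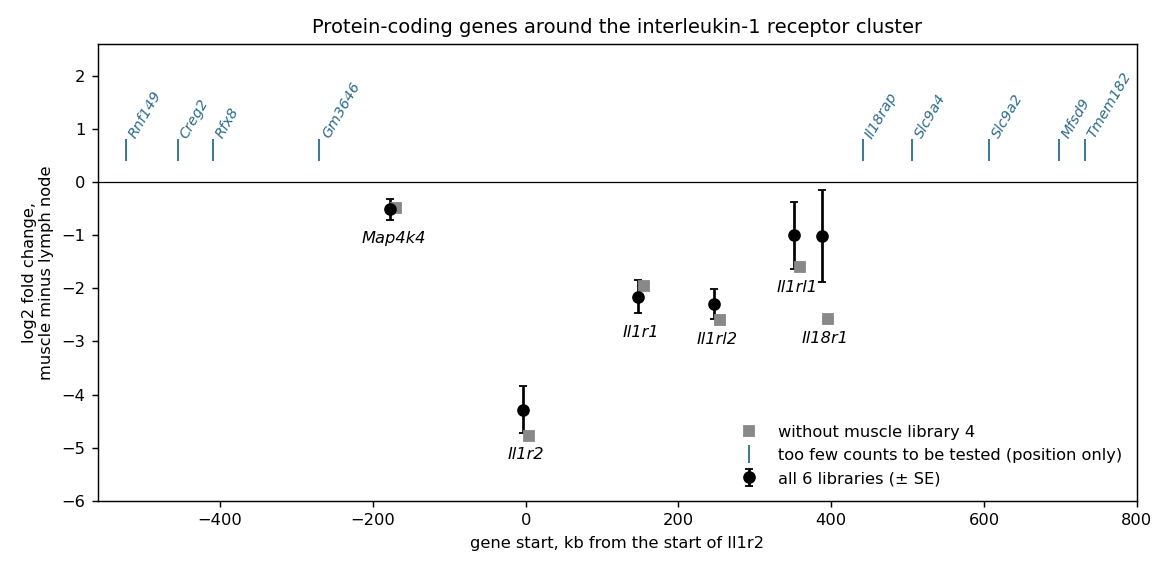
Log2 fold change, muscle minus lymph node (vertical axis), of the tested protein-coding genes around the receptor genes by the distance of their start from that of Il1r2 in kb (horizontal axis), with all libraries (black circles, SE bars) and without muscle library 4 (grey squares). Il1r2, Il1r1 and Il1rl2 lie at -4.28, -2.16 and -2.29 and Map4k4 at -0.51, and blue ticks mark genes with too few counts.

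Since 3 neighbouring genes of the cluster were called lower in muscle, the 250 bases before their RefSeq starts are shown, with those of Il1rap, a called gene on another chromosome, for comparison (RefSeq, GRCm38.p6, plus strand, 5′ to 3′). RefSeq and GENCODE starts can differ: the Il1r2 window lies inside the GENCODE gene given above, downstream of its start, as does the downstream window of Il1r1. Capitals mark matches, on either strand, to GGG, any 5 bases, then CC, a loose form of the NF-kB binding motif, and to TGANTCA, the AP-1 motif; overlapping matches run together.
Il1r2, chr1:40085843-40086092: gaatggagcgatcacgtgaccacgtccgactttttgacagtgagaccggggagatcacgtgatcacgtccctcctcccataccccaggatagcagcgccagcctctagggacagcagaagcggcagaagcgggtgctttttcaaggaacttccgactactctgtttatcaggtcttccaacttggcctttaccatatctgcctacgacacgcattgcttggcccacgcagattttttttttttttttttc
Il1r1, upstream start, chr1:40224830-40225079: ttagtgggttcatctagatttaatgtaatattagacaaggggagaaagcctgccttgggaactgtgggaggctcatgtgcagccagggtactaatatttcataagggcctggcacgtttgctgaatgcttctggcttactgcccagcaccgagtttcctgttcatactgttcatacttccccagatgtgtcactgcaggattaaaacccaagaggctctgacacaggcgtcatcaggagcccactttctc
Il1r1, downstream start, chr1:40266336-40266585: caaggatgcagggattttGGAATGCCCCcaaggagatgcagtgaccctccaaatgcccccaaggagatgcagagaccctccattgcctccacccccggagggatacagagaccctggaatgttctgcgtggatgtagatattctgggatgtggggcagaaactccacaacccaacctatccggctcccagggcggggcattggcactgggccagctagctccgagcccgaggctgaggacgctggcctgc
Il1rl2, chr1:40324339-40324588: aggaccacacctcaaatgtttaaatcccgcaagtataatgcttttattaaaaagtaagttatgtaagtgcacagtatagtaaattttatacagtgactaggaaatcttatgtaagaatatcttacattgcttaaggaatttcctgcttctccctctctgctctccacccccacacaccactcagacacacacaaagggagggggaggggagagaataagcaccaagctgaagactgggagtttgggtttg
Il1rap, chr16:26581455-26581704: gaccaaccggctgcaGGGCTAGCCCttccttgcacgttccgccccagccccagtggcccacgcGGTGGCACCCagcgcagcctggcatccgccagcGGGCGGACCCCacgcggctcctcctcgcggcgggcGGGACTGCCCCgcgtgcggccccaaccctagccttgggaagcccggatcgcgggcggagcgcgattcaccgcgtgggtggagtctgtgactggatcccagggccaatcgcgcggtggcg

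RefSeq gave 14 such windows for 9 of the 10 genes. The NF-kB-type letters were found in 6 of the 14, against 45.8% of all 32851 windows, and the AP-1 letters in 1 of the 14, at an Il1rn start, against 6.75% of all. In the windows shown, Il1r2, the upstream start of Il1r1 and Il1rl2 held neither motif, the downstream start of Il1r1 held 1 NF-kB-type match and Il1rap held 6, some of them overlapping. Base composition differed as well: the Il1rap window was 74.4% G and C with 30 CpG dinucleotides, whereas those of Il1r2, Il1rl2 and the upstream Il1r1 start were 51.2%, 41.2% and 48.4% G and C with 14, 1 and 3 CpG. The downstream Il1r1 window was 60.4% G and C with 7 CpG. The median of all windows was 52.4% with 6 CpG. Matches describe these letters in these windows and do not show binding.

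Genes downstream of the receptors were read from lists chosen with earlier results known. Among 21 tested adaptor and kinase genes the shared adaptor Myd88 was the only one called, against 4.32% of all tested genes called in either direction: it averaged 31.3 ± 8.52 CPM in muscle cells, against 138 ± 9.86 CPM in lymph node (SD, n = 3 each), a log2 fold change of -2.05 ± 0.23 (edgeR adjusted p = 0.00143). The IL-17 adaptor Traf3ip2 (-0.00), the kinases Irak1 (0.10) and Irak4 (-0.07) and the ubiquitin ligase Traf6 (-0.42) were not called, and the median of the list was -0.00 against 0.02 over all tested genes. The count was again 1 of 21 without muscle library 4.

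Of 14 tested NF-kB subunit and feedback genes, 2 fell in muscle and 12 were not called, against 2.86% of all tested genes called lower. The 2 were the feedback inhibitor Nfkbia (-2.79 ± 0.30, edgeR adjusted p = 0.00112) and the NF-kB regulator Nfkbiz (-3.61 ± 0.45, adjusted p = 0.00224). The median of the list was -0.78. Without muscle library 4, 5 of 14 fell, against 7.58% of all genes tested then, and Nfkbiz was -4.24. Tnfaip3, an NF-kB feedback gene named after its values were seen, was -0.87 with all libraries (adjusted p = 0.708) and -2.63 without muscle library 4. Of 5 tested inflammasome genes, the adaptor gene Pycard fell (24.1 ± 2.21 CPM in muscle cells, against 79.0 ± 20.4 CPM in lymph node, -1.68 ± 0.27, adjusted p = 0.00805), a call lost without lymph node library 2 or 3, and 2 of 5 fell without muscle library 4, beside the same shares over all genes.

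Of 16 tested genes that IL-1 or IL-17 are known to induce in fibroblasts, 10 fell in muscle while 6 were not called (edgeR, adjusted p under 0.05), with a median log2 fold change of -1.95, against 2.86% of all tested genes called lower. Without muscle library 4, 11 of 17 fell, against 7.58%, and the median was again -1.95. Those with the smallest p were the protease Mmp3 (-5.29), the prostaglandin synthase Ptgs2 (-3.31), the cytokine Il6 (-6.75) and the hyaluronan synthase Has1 (-4.60). Il6 rested on 5 muscle counts, all in muscle library 2, and without it the fitted value (-10.94) depends on the prior count and is no bound. Has1 was -5.34 without muscle library 3 and remained called there. Members that were not called, named after their values were seen, included the chemokine Ccl2 (-0.82, adjusted p = 0.536), the cytokine Lif (-0.13, adjusted p = 0.92) and the antioxidant enzyme Sod2 (-0.41, adjusted p = 0.53). Summed over the 25 listed genes, the level was 2265 ± 724 CPM in muscle cells, against 16046 ± 758 CPM in lymph node, and it was 2588, 2772 and 1435 CPM in muscle libraries 2, 3 and 4. Most of it was the complement gene C3, at 1285 CPM in muscle libraries on average and 10486 CPM in lymph node libraries. Many of them also respond to other signals: immediate early genes, which respond to stress and tissue dissociation, summed to between 3457 and 4283 CPM in muscle libraries and between 23302 and 25200 CPM in lymph node libraries, and 17 of the 20 tested fell, against 2.86% of all tested genes, or 18 of 20 without muscle library 4, against 7.58%. The part of such handling responses in the receptor and target genes was not tested.

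**Figure D5:**
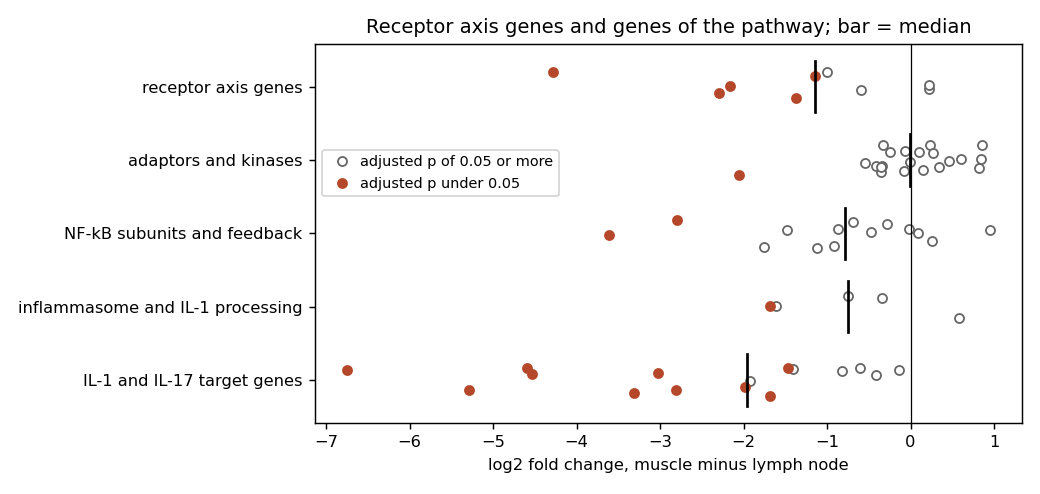
Log2 fold change, muscle minus lymph node (horizontal axis), of each tested gene by group, with filled points for adjusted p under 0.05 (edgeR) and a bar at the group's median. The receptor genes have a median of -1.14 and the induced genes of -1.95, while the adaptors and kinases centre on -0.00 with Myd88 as the filled point at -2.05.

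Ligand genes of IL-17 receptors had few counts in the sorted cells of both tissues, which do not measure ligand made by other cells. Il17a and Il17f had 0 and 1 counts in muscle, against 1 and 2 in lymph node, Il17b had 0 in all 6 libraries, and of the 8 further IL-17 ligand and receptor genes none had enough counts to be tested. Il18, the IL-18 cytokine gene, was present in both, at 34.6 CPM in muscle cells, against 46.7 CPM in lymph node (log2 fold change -0.27, edgeR adjusted p = 0.834). Its soluble inhibitor Il18bp averaged 9.02 CPM in muscle cells, against 25.7 CPM in lymph node, and had a log2 fold change of -1.20 (adjusted p = 0.301), or -0.92 without muscle library 4, where it had 0 counts (adjusted p = 0.0486). Each of these was named after its values were seen.

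Genes whose pattern over the 6 libraries was closest to a receptor gene were found by the root mean square difference of centred log2 CPM among 6878 genes. For Il1r1 they were Tmem106a, Cavin2 and Enpep, with differences of 0.17, 0.19 and 0.20, where the median gene differed by 1.25. For Il1r2 they were the NF-kB regulator Nfkbiz (0.38), the growth factor Fgf10 (0.55) and the immediate early gene Nr4a1 (0.57), against a median of 2.22. For Il33 they were Mrpl24, Mob4 and Nsmce1, at 0.08, 0.08 and 0.10 against a median of 0.45. Over the 5 libraries without muscle library 4, the 3 genes nearest to Il1r2 were the stress response factor Atf3 (0.30), Nfkbiz (0.35) and the lipid carrier Apoe (0.36), so that Nfkbiz stayed and Fgf10 and Nr4a1 did not. All 3 changed for Il1r1 (Gm4951, Nop58 and Irgm1) and for Il33 (Kdm5b, Sorbs3 and Mapkbp1). Values were centred but not scaled, so a tissue difference of similar size by itself makes genes close. Closeness therefore does not show shared regulation.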

How the data were processed

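The authors' deposited table holds raw counts per gene symbol for 6 libraries. Per the labels' protocols, polyadenylated RNA of 1000 cells per library was copied from an oligo(dT) primer, amplified, fragmented by transposition and read from both ends over 25 bases. The submitters' processing notes name STAR 2.5.4, featureCounts and mm10. Annotation release, strand setting and handling of multiply aligned reads were not given in the sources used here, so a gene and its antisense partner cannot be told apart, and counting intervals cover counting error only. Overlapping models of called genes held few counts: Gm38070 in Il1r1 had 7 in muscle and 101 in lymph node, and Gm16894 and Gm37347 in Il1r2 had 6 and 5 in muscle and 21 and 10 in lymph node. Gm17970, a pseudogene in Il1rl2, had 8 in muscle and 28 in lymph node, and Gm20319 in Il1rap had 1 in each tissue. At most 4.55% of a listed gene's 25-base words occur in transcripts of other genes.

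Columns were assigned to tissue by name; the muscle columns cannot be tied to single samples. Counts were tested with edgeR 4.0.16 in R 4.3.3 (filterByExpr, TMM, quasi-likelihood F test on tissue, all 6 libraries, Benjamini-Hochberg over 10823 genes, threshold 0.05). Standard errors are the log2 fold change over the root of F. Alternatives were scaling by RLE, upper quartile or total counts, no filter, a filter of 10 CPM in 3 libraries, DESeq2 1.42.0, limma-voom (limma 3.58.1), leaving out each library, summing each pair of muscle libraries and thinning to the smallest library. Coding transcript length and a replicate block by column number were added after seeing the data. Tested on simulated data of this comparison (10503 genes, 200 changed, each of at least 20 mean CPM), edgeR recovered 83% of 4-fold and 20% of 2-fold changes, with 7 false calls. Recovery at lower levels, such as that of Il1rl1, was not tested. Lengths and positions come from GENCODE M21 (GRCm38). Ratios had 1 count added to both genes, and log2 CPM a prior count of 2. Libraries of 1 tissue all differed beyond sampling noise (chi-square over degrees of freedom from 2.39 to 23.5). Genes and lists were chosen with earlier results of these data known. Named were all 10 genes, up to 4 called genes per pathway list by smallest p, and the 3 genes of at least 20 mean CPM most alike to Il1r1, Il1r2 and Il33.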

Additional observations from a re-analysis of the deposited data

How the results depend on the processing

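Il1r1, Il1r2 and Il1rl2 kept direction and call in all 17 alternatives chosen at the outset, Il1rap in 12 and Il17ra in 10. With 1 library left out the listed genes called lower in muscle numbered between 3 and 5, and with muscle libraries 2 and 3 summed 3. Il17ra also lost its call when all libraries were thinned to the smallest (-0.88, adjusted p = 0.149). Il17rd, not called in any fit, ran from -0.088 to 0.57 with 1 library left out, and was -0.034 with muscle libraries 2 and 3 summed. The count of all called genes was 468, and moved to 945 without a filter, to between 142 and 1391 with 1 library left out, and to 1266, 1435 and 222 with muscle libraries 3 and 4, 2 and 4, or 2 and 3 summed. Without a filter, the median log2 fold change of the genes tested in the main comparison shifted to -0.14. The differences in the 4 within-library ratios kept their sign with 0.5 counts added and with each library left out. The cause of these changes was not tested. Numbers 2 and 3 occur in both tissues, but the muscle columns cannot be tied to the muscle titles, and deviations of the same-numbered libraries from their tissue means had r = -0.026 and 0.021 across genes, so the numbers were not taken to pair the libraries. A replicate block by column number, added after seeing the data, called 1530 genes, 5 listed genes lower and 0 higher, and changed no call among the listed genes; muscle library 4 and lymph node library 1 have no partner and drop out of that contrast. The depth of muscle library 4 limits what can be said of Il1rl1, Il17rd and Il1rn, which had 4, 1 and 0 counts there.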
